A study of Mus musculus with 8 samples.

Results

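The junction genes of the intercalated disc were followed in RNA from whole hearts of mouse embryos at E18.5, shortly before birth. The 10 genes, *Gja1*, *Tjp1*, *Cdh2*, *Ctnna3*, *Xirp1*, *Dsg2*, *Dsc2*, *Jup*, *Pkp2* and *Dsp*, were chosen by name, and every probe on the array whose accession belongs to one of them was kept, which gave 20 probes out of 41174. The hearts came from 4 wild-type (WT) and 4 SIRT1 knockout (SIRT1 KO) embryos labelled C57BL/6 (C57BL/6J in the study's methods), the knockout being germ-line and of the whole body. No agent was given, both genotypes came from animals on a chow diet, and the study's methods describe breeding of heterozygous parents and embryos of both sexes. Each heart was hybridized to 1 one-color Agilent array. Because the knockout is not limited to 1 cell type and the RNA is from whole hearts, fewer cells of a type and less RNA per cell cannot be told apart in these values.

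The intercalated disc is the end-to-end contact between cardiomyocytes, where 3 kinds of junction lie side by side. Gap junctions pass ions and the electrical impulse from cell to cell, adherens junctions tie the actin of one myofibril to that of the next cell, and desmosomes tie the desmin filaments together. Around birth these proteins are spread over the whole surface of the cardiomyocyte, and they collect at the cell ends as the heart matures. The study asked how SIRT1 affects the alignment of cardiomyocytes in this period, and the comparison here asks whether the mRNA of the disc junctions differs between the 2 genotypes.

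A level is given as the log2 intensity of a probe minus the 75th percentile of its array, so that 0 stands for the 75th percentile of all probes. A level describes 1 probe and is not set against the level of another probe. That percentile was 934 to 1032 intensity units in the WT hearts and 779 to 900 in the SIRT1 KO hearts, 59.5% to 64.9% of the probes on an array were well above background, no spot was saturated, and the arrays correlated with r from 0.986 to 0.995. The 4 WT arrays share a slide and a scan day and the 4 SIRT1 KO arrays share another, so that the genotypes cannot be told apart from the slides and scan days. *Sirt1*, the targeted gene, was not called lower by either of its probes. On A_52_P358612 the level was 0.05 ± 0.20 (SD, n = 4) in WT hearts and 0.58 ± 0.14 (SD, n = 4) in those labelled SIRT1 KO, a difference of 0.54 (limma adjusted p = 0.0332), and on A_51_P141152 the difference was -0.11 (limma adjusted p = 0.590). Where these probes lie relative to the deleted part is not analysed here, and every direction is that of the hearts labelled SIRT1 KO against the hearts labelled WT.

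No probe of the 10 junction genes passed an adjusted p of 0.05 between the genotypes. Of the 20 probes, 19 stood well above background on 4 or more of the 8 arrays and were tested. In the hearts labelled SIRT1 KO 8 of these read higher and 11 read lower. Their log2 fold changes ran from -0.31 to 0.38 with a median of -0.02, against 0.01 over all probes tested, and the lowest adjusted p among them was 0.117 (limma). Over all probes, 1258 of 25615 (4.91%) passed the threshold, so that a count of 0 among 19 probes is near the background. At an unadjusted p under 0.05 there were 3 of the 19 probes (15.8%), against 5496 of all probes (21.5%). That count was 6 (31.6%) with quantile normalization, against 21.7% of all probes, 6 with median scaling, against 30.6%, 9 (47.4%) with no scaling, against 42.6%, and 5 (26.3%) with replicate number as a block, against 23.9%, so that it lay on either side of the share of all probes. The methods' analysis of variance, computed for each probe with genotype as its factor, also gave 3 probes before adjustment, against 20.0% of all probes, and 0 after it, against 2.02%. The 95% confidence intervals (CI) of the 19 probes lay within -0.61 to 0.67 on the log2 scale, which is 0.656-fold to 1.59-fold. The 4 values of one genotype lay entirely above those of the other in 2 of the 19 probes (10.5%), 1 of *Dsp* and 1 of *Dsg2*, against 13.8% of all probes with a value on every array.

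**Figure D1:**
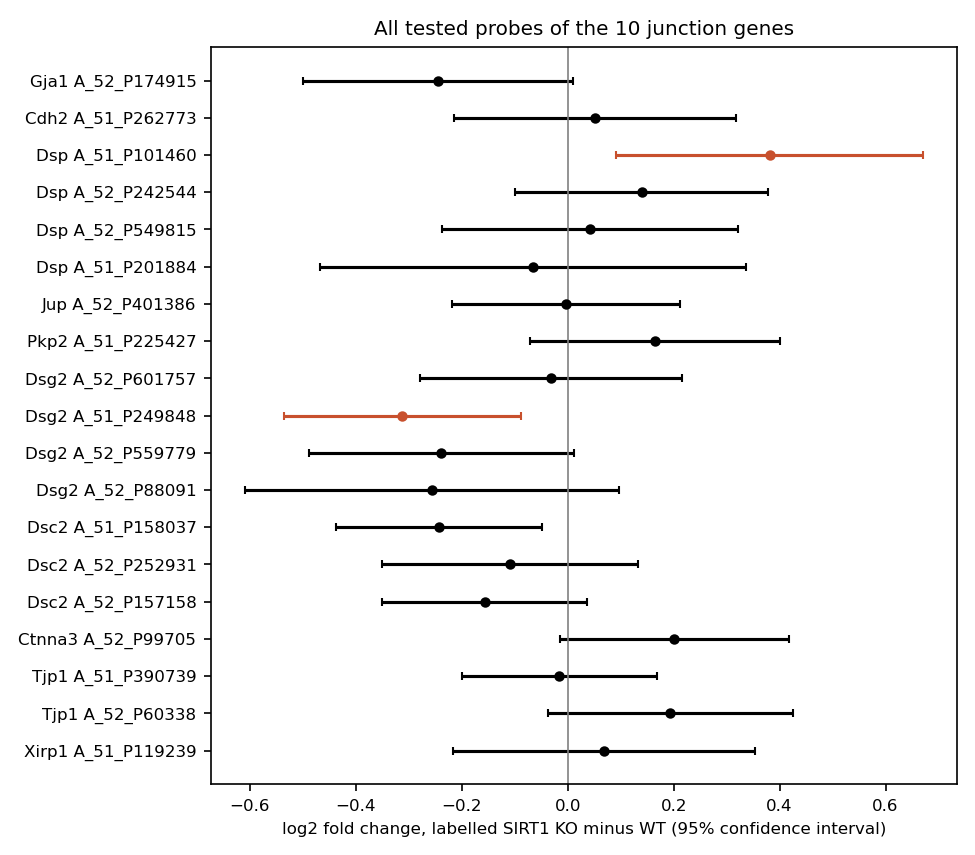
Log2 fold change of each tested probe, SIRT1 KO minus WT as labelled (x axis), with its 95% CI as a bar; rows are the 19 probes of the 10 junction genes, and the 2 probes whose genotypes did not overlap are in red. Of the intervals, 16 cover 0, and the exceptions are 1 probe each of *Dsp*, *Dsg2* and *Dsc2*.

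*Gja1* encodes the connexin Cx43, the main gap junction channel of the working ventricle. Its probe read 2.24, 2.42, 2.31 and 2.09 in WT hearts 1 to 4 and 2.16, 2.11, 2.07 and 1.74 in SIRT1 KO hearts 1 to 4. Of the SIRT1 KO hearts, 3 lay below the upper 3 WT hearts and close to WT heart 4 on either side, and SIRT1 KO heart 4 was the lowest of all 8. The mean was 0.844-fold that of the WT hearts, a log2 fold change of -0.24 (standard error, SE, 0.11, 95% CI -0.50 to 0.011, limma adjusted p = 0.250, exact permutation p = 0.0857). Without SIRT1 KO heart 4 the log2 fold change was -0.15, and it passed the threshold only when the arrays were not scaled to each other (-0.46, limma adjusted p = 0.0408). No direction was called for *Gja1* once arrays were scaled.

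*Tjp1* encodes ZO-1, the scaffold that binds Cx43 at the edge of the gap junction. Its brighter probe (A_51_P390739) read 1.03, 0.96, 1.11 and 1.25 in the WT hearts and 1.13, 1.07, 1.00 and 1.09 in the SIRT1 KO hearts. The genotypes overlapped throughout, and the log2 fold change was -0.02 (95% CI -0.20 to 0.17, limma adjusted p = 0.932). The dimmer probe (A_52_P60338) gave 0.19 (SE 0.10, limma adjusted p = 0.311). *Gja1* relative to *Tjp1* within each heart differed between the genotypes by -0.23 (SE 0.16, exact permutation p = 0.286), and by -0.44 with the dimmer *Tjp1* probe (exact permutation p = 0.0286, adjusted p = 0.114 over 4 pairs).

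*Cdh2* encodes N-cadherin, the transmembrane cadherin of the adherens junction. It read 1.91, 2.36, 2.13 and 2.02 in the WT hearts and 2.20, 2.08, 1.99 and 2.36 in the SIRT1 KO hearts. The highest WT heart and the highest SIRT1 KO heart had the same level to 2 decimals, and the log2 fold change was 0.05 (SE 0.12, 95% CI -0.22 to 0.32, limma adjusted p = 0.839). The sign of this difference turned under several other scalings and with single hearts left out, so no direction is given for it.

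*Ctnna3* encodes alpha-T-catenin, which links cadherin complexes to actin and also binds plakophilin-2, so that adherens junction and desmosome meet in it. Its tested probe read -1.19, -1.34, -1.38 and -1.25 in the WT hearts and -1.19, -1.26, -0.98 and -0.92 in the SIRT1 KO hearts. SIRT1 KO hearts 3 and 4 lay above all WT hearts, and the other SIRT1 KO hearts lay among them. The log2 fold change was 0.20 (SE 0.10, 95% CI -0.015 to 0.42, limma adjusted p = 0.263), and it was -0.02 with no scaling. The second *Ctnna3* probe (A_51_P131069) was well above background on 0 WT arrays and 1 SIRT1 KO array, that of heart 2, and was not tested. *Xirp1* encodes Xin, an actin-binding protein that joins the N-cadherin complex. It read 2.45, 2.25, 2.55 and 2.72 in the WT hearts and 2.78, 2.63, 2.51 and 2.33 in the SIRT1 KO hearts, ranges that overlapped almost fully, with a log2 fold change of 0.07 (SE 0.13, limma adjusted p = 0.793) whose sign also turned under other scalings.

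**Figure D2:**
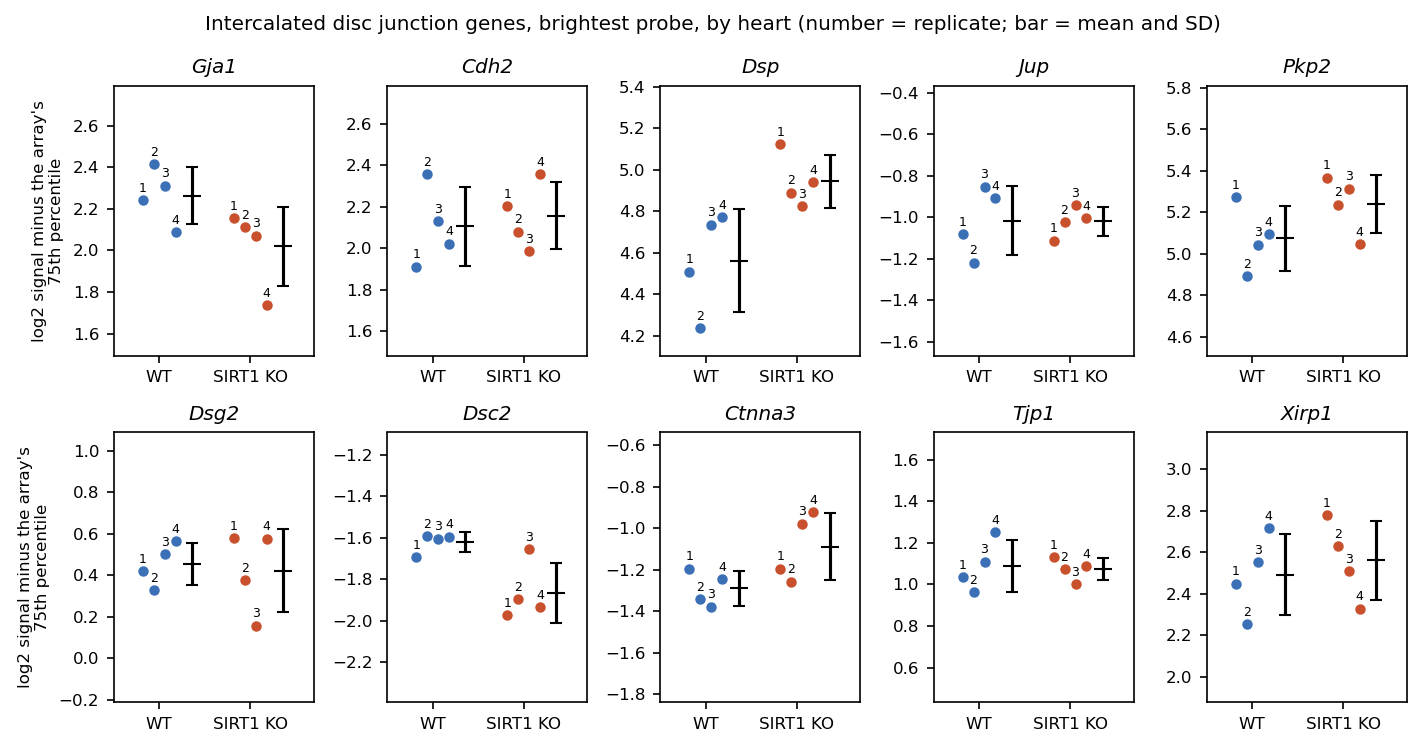
Level of the brightest probe of each of the 10 junction genes (y axis, log2 signal minus the array's 75th percentile; every panel spans the same range) in the 4 WT hearts (blue) and the 4 hearts labelled SIRT1 KO (orange), with the replicate number at each point and the mean and SD as bars. *Dsp* is the one gene here whose genotypes do not overlap, and WT heart 2 is the lowest of 8 in 5 panels and the highest in 3.

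*Dsg2* encodes desmoglein-2, the main desmoglein of cardiomyocytes, and it had 4 tested probes, none of them called. The brightest (A_52_P601757) read 0.42, 0.33, 0.50 and 0.56 in the WT hearts and 0.58, 0.38, 0.16 and 0.58 in the SIRT1 KO hearts, with a log2 fold change of -0.03 (SE 0.11, limma adjusted p = 0.893). The next brightest (A_51_P249848) read -1.31, -1.69, -1.55 and -1.35 in the WT hearts and -1.73, -1.87, -1.84 and -1.71 in the SIRT1 KO hearts. All 4 SIRT1 KO values of that probe lay below the lowest WT value, by as little as the gap between -1.71 and -1.69. Its log2 fold change was -0.31, or 0.805-fold (SE 0.10, 95% CI -0.54 to -0.09, limma adjusted p = 0.117, exact permutation p = 0.0286, the smallest that 4 against 4 allow). It passed the threshold with median scaling (-0.44, limma adjusted p = 0.0407), with no scaling (-0.53, limma adjusted p = 0.0165) and with the arrays scaled on the cardiomyocyte markers (-0.43, limma adjusted p = 0.0468). With replicate number as a block its SE was 0.075 and its limma adjusted p 0.0778. The 2 dimmest probes gave -0.24 (A_52_P559779, limma adjusted p = 0.251) and -0.26 (A_52_P88091, limma adjusted p = 0.376). Within each heart the brightest *Dsg2* probe minus A_51_P249848 was 0.28 higher in the hearts labelled SIRT1 KO, a difference with an exact permutation p of 0.0857 (adjusted p = 0.206 over 9 probe pairs). Since 4 hearts against 4 give no p below 0.0286, at least 6 of the 9 pairs would have to lie at that value for any to pass after adjustment, so that the adjusted p does not decide on a single pair. The values of the 3 dimmer probes moved when normexp, a model-based background correction chosen after seeing the data, was run on the median signal of the spots in place of the processed signal, which gave -0.21 (A_51_P249848), -0.087 (A_52_P559779) and 0.073 (A_52_P88091). The files do not say which transcripts each *Dsg2* probe covers.

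*Dsc2* encodes desmocollin-2, the cadherin that pairs with desmoglein-2. Its brightest probe (A_51_P158037) read -1.70, -1.59, -1.61 and -1.60 in the WT hearts and -1.97, -1.90, -1.65 and -1.94 in the SIRT1 KO hearts. Of the SIRT1 KO hearts, 3 lay below every WT heart, and SIRT1 KO heart 3 lay among them. The log2 fold change was -0.24 (SE 0.09, 95% CI -0.44 to -0.05, limma adjusted p = 0.150, exact permutation p = 0.0571). Without SIRT1 KO heart 3 it was -0.31 with a limma adjusted p of 0.0374, so that 1 heart decided the side of the threshold. It also passed with no scaling (-0.46, limma adjusted p = 0.0132) and with the arrays scaled on the cardiomyocyte markers (-0.36, limma adjusted p = 0.0366). The other probes gave -0.11 (A_52_P252931, limma adjusted p = 0.590) and -0.16 (A_52_P157158, limma adjusted p = 0.324), and all 3 were lower. With normexp on the median signal the values shrank to -0.15 (A_51_P158037, limma adjusted p = 0.251), -0.059 (A_52_P252931) and -0.025 (A_52_P157158). Without WT heart 1, A_52_P252931 gave -0.036, and without WT heart 4, A_52_P157158 gave -0.10.

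Desmosomes are also built by epithelia, among them the mesothelial cells of the epicardium. All 7 markers of mesothelium and epicardium (*Wt1*, *Upk3b*, *Msln*, *Upk1b*, *Krt19*, *Krt8*, *Krt18*) were lower in the hearts labelled SIRT1 KO under each scaling, none past the threshold and 5 at an unadjusted p under 0.05, against 2766 of 13594 genes. Past the threshold were 2 with scaling on the cardiomyocyte markers, against 6.78% of all genes, and 3 with median scaling, against 6.82%. It was 4 with no scaling, against 27.1%, and 4 with normexp, against 8.36%. Their summed level was 4.39 to 4.61 in the WT hearts and 3.50 to 4.35 in the SIRT1 KO hearts, lowest in SIRT1 KO heart 4, with no overlap. Of the 7 tested probes of *Dsg2* and *Dsc2*, 1 was lowest of the 8 hearts in that heart (*Dsc2* A_52_P252931, -2.66). The part of these cells in the *Dsg2* and *Dsc2* values was not tested. Of 6 markers of surface epithelium, *Krt5* was well above background on 0 arrays, *Epcam*, *Cdh1* and *Krt15* on 1 each, and *Trp63* on 6 of 8. *Krt14* was well above background on all 8, and its mean level was -2.21 for the WT genotype (SD 0.48, n = 4) and -2.73 for SIRT1 KO (SD 0.46, n = 4).

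*Jup* encodes plakoglobin, the armadillo protein of the desmosomal plaque that adherens junctions hold as well. It read -1.08, -1.22, -0.85 and -0.91 in the WT hearts and -1.11, -1.02, -0.94 and -1.004 in the SIRT1 KO hearts. All SIRT1 KO values lay within the WT range, with a log2 fold change of -0.0041 (95% CI -0.22 to 0.21, limma adjusted p = 0.986). *Pkp2* encodes plakophilin-2, the plaque protein most often mutated in arrhythmogenic cardiomyopathy. It read 5.27, 4.89, 5.04 and 5.09 in the WT hearts and 5.37, 5.24, 5.31 and 5.05 in the SIRT1 KO hearts. The highest WT heart lay above 2 of the SIRT1 KO hearts, and the log2 fold change was 0.16 (SE 0.10, 95% CI -0.07 to 0.40, limma adjusted p = 0.394).

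*Dsp* encodes desmoplakin, which anchors desmin to the desmosomal plaque, and it had the largest positive fold change of the 19 probes. Its brightest probe (A_51_P101460) read 4.51, 4.24, 4.73 and 4.77 in the WT hearts and 5.12, 4.89, 4.82 and 4.94 in the SIRT1 KO hearts. Every SIRT1 KO heart lay above every WT heart, the closest being SIRT1 KO heart 3 and WT heart 4. The mean was 1.30-fold that of the WT hearts, a log2 fold change of 0.38 (SE 0.13, 95% CI 0.09 to 0.67, limma adjusted p = 0.134, exact permutation p = 0.0286). It passed the threshold in none of 18 alternative settings, with adjusted p between 0.0573 and 0.383. It was positive in each, but with no scaling it was 0.16, with median scaling 0.26, and without WT heart 2, the lowest, 0.27.

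The other *Dsp* probes gave smaller fold changes. A_52_P242544 read 3.55, 3.38, 3.68 and 3.83 in the WT hearts and 3.78, 3.66, 3.69 and 3.87 in the SIRT1 KO hearts, with overlapping genotypes and a log2 fold change of 0.14 (SE 0.11, limma adjusted p = 0.476). With 1 heart left out it ran from 0.064 (without WT heart 2) to 0.21 (without WT heart 4). The dim probes A_52_P549815 and A_51_P201884 gave 0.04 (limma adjusted p = 0.874) and -0.07 (limma adjusted p = 0.863). With normexp on the median signal these dim probes gave 0.12 and 0.14, so that their values depended on the background correction. Within each heart the brightest *Dsp* probe exceeded A_52_P242544 by 0.24 more in the hearts labelled SIRT1 KO, and A_52_P549815 by 0.34 more. The genotypes did not overlap in either difference (exact permutation p = 0.0286 for each, adjusted p = 0.129 over 9 probe pairs), and a factor applied to a whole array leaves such a difference as it is. Quantile normalization, which changes probes of different brightness unequally, gave 0.25 and 0.46 (exact permutation p = 0.0286 for each, adjusted p = 0.0857), and it moved the difference from A_51_P201884 from 0.45 (exact permutation p = 0.114) to 0.64 (exact permutation p = 0.0286, adjusted p = 0.0857). These adjusted values are bounded in the same way by the number of hearts. The files do not say which transcripts each *Dsp* probe covers. Of the cardiomyocyte markers 8 of 10 were higher (4 with median scaling, 3 with no scaling), with none past the threshold and a summed level of 10.89 to 11.01 in the WT hearts and 10.98 to 11.21 in the SIRT1 KO hearts, and all 10 were well above background on every array. The part of these markers in the *Dsp* value was not tested. With the arrays scaled on the cardiomyocyte markers, the *Dsp* log2 fold change was 0.26 (limma adjusted p = 0.185).

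**Figure D3:**
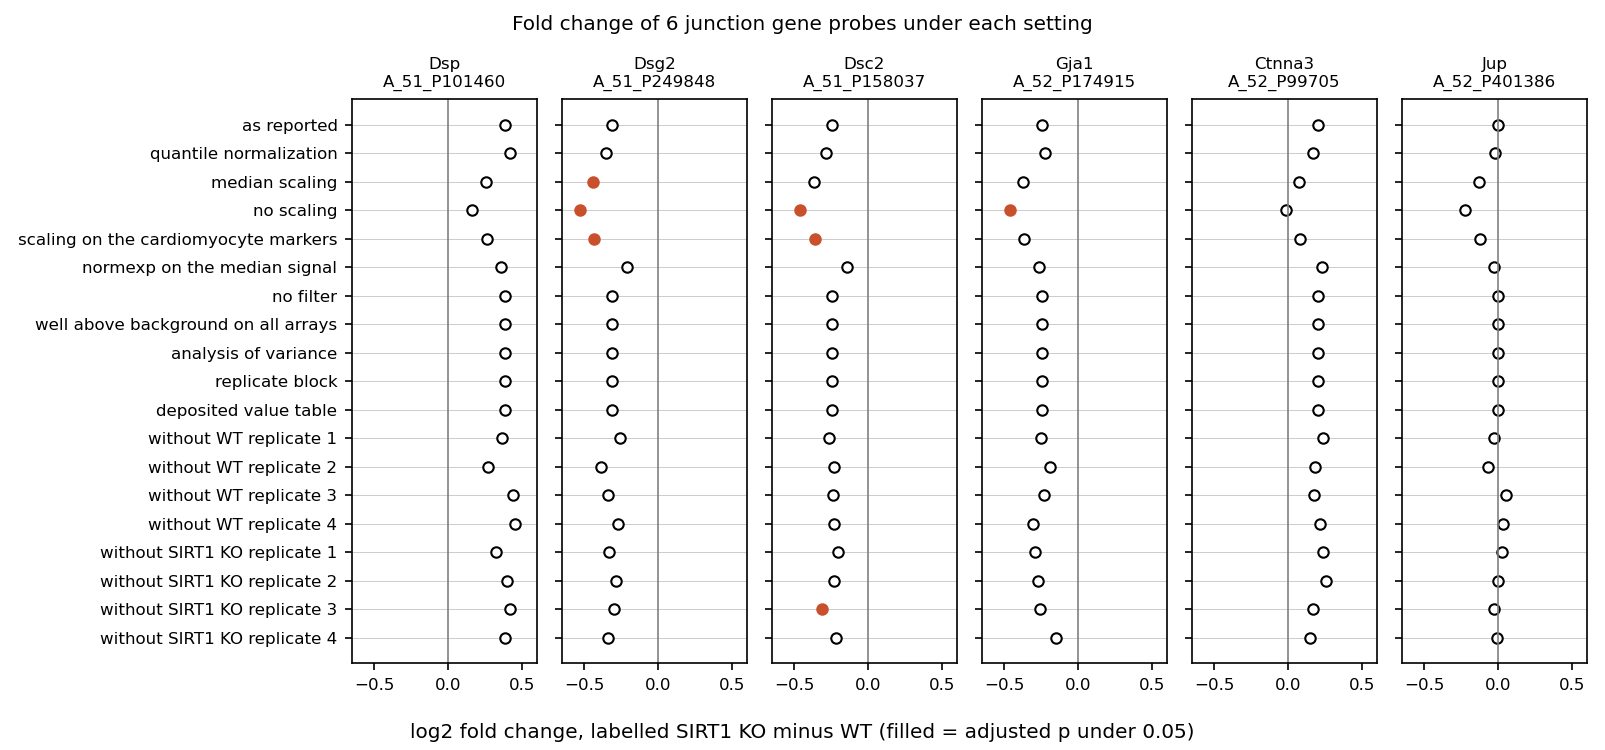
Log2 fold change, SIRT1 KO minus WT as labelled (x axis), of 6 junction gene probes under each setting (rows); filled points had an adjusted p under 0.05. The plotted probe of *Dsp* (A_51_P101460) stayed above 0 and those of *Dsg2* (A_51_P249848), *Dsc2* (A_51_P158037) and *Gja1* below 0 in every row, and most filled points lie in the rows that change the scaling between arrays.

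The mRNAs of partner proteins of the disc were next compared within each heart, as the brightest probe of a gene minus that of its partner, which a factor applied to a whole array does not change. With 4 hearts against 4, no single pair among 9 could pass after adjustment whatever its size, and the values are given as measured. *Dsp* relative to *Jup* was higher by 0.39 in the hearts labelled SIRT1 KO (SE 0.11, exact permutation p = 0.0286, adjusted p = 0.257 over 9 pairs), with no overlap of the genotypes, and by 0.14 with the next brightest *Dsp* probe (exact permutation p = 0.171). *Dsp* relative to *Pkp2* differed by 0.22 (exact permutation p = 0.200), and by -0.025 with the next brightest *Dsp* probe. *Dsg2* relative to *Dsc2* was higher by 0.21 on the brightest probes and lower on the next brightest of both genes (-0.20). On the brightest probes SIRT1 KO heart 3 had the lowest *Dsg2* level (0.16) and the highest *Dsc2* level (-1.65) of the SIRT1 KO hearts. For the adherens junction, *Cdh2* differed by -0.15 relative to *Ctnna3*, 0.06 relative to *Jup* and -0.02 relative to *Xirp1*, each well within its spread between hearts. *Ctnna3* relative to *Pkp2*, the pair that links adherens junction and desmosome, differed by 0.036 (-0.026 with quantile normalization), and *Jup* relative to *Pkp2* by -0.17.

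The junction genes did not vary in the same way from heart to heart. On the brightest probes, WT heart 2 had the lowest level of the 8 hearts for *Dsp*, *Jup*, *Pkp2*, *Tjp1* and *Xirp1* and the highest for *Gja1*, *Cdh2* and *Dsc2*. SIRT1 KO heart 1 was the highest for *Dsp*, *Pkp2*, *Dsg2* and *Xirp1* and the lowest for *Dsc2*. Within a genotype the SD of a tested probe was between 0.041 and 0.397 on the log2 scale.

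The scaling between arrays set the balance of directions. With quantile normalization 7 junction probes were higher and 12 lower, with median scaling 5 and 14, and with no scaling 1 and 18, while over all probes the median log2 fold change was as low as -0.21 (no scaling). Over all probes called, 81.2% were higher in the hearts labelled SIRT1 KO as scaled here, 63.9% after quantile normalization, 38.7% after median scaling and 10.1% with no scaling. The number of junction probes past the threshold was 1 of 19 (5.26%) with median scaling, where 6.89% of all probes passed, and 5 of 19 (26.3%) with no scaling, where 24.8% of all probes passed. With the arrays scaled on the cardiomyocyte markers it was 2 of 19 (10.5%), against 6.61% of all probes, and without SIRT1 KO replicate 3 it was 1 of 19 (5.26%), against 7.0%. The counts of higher and lower junction probes therefore describe the scaling as much as the genotypes.

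Other genes of the junctions and of the disc were taken from 5 lists with 66 genes, of which 65 were on the array and 53 could be tested, each by its brightest tested probe. Of these, 2 genes (3.77%) passed the threshold, against 4.60% of all genes, and 22 were higher and 31 lower with this scaling. The genotypes did not overlap for 8 (15.1%), against 14.0% of all genes, and the median log2 fold change was -0.05, against -0.01 over all genes.

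*Ctnna2*, which encodes alpha-N-catenin, the alpha-catenin best known from neurons, read higher in the hearts labelled SIRT1 KO on its only probe, a dim one. It read -3.89, -3.70, -3.72 and -3.88 in the WT hearts and -2.83, -2.57, -3.46 and -2.94 in the SIRT1 KO hearts, a log2 fold change of 0.85 (SE 0.17, limma adjusted p = 0.0246). All SIRT1 KO hearts lay above the WT hearts, heart 3 by the least. With normexp on the median signal the log2 fold change was smaller, at 0.56 (limma adjusted p = 0.00453). Leaving out 1 heart at a time gave 0.72 to 1.02, and the call held only without SIRT1 KO replicate 3, the adjusted p being 0.0503 to 0.0695 in the other 7 fits. It was lost as well with no scaling (limma adjusted p = 0.0545), with scaling on the cardiomyocyte markers (limma adjusted p = 0.0535), with no filter (limma adjusted p = 0.0535) and with the methods' analysis of variance (adjusted p = 0.0894). *Gja4*, which encodes the Cx37 connexin of endothelial cells, fell. It read 1.64, 1.93, 1.73 and 1.86 in the WT hearts and 1.48, 1.39, 1.26 and 1.42 in the SIRT1 KO hearts, without overlap, a log2 fold change of -0.40 (SE 0.09, limma adjusted p = 0.0368). Leaving out 1 heart at a time gave -0.45 to -0.35, and of these 8 fits the call held only without WT replicate 1. It was lost as well with quantile normalization (limma adjusted p = 0.0519), with replicate number as a block (limma adjusted p = 0.0655), with no filter (limma adjusted p = 0.0765) and with the methods' analysis of variance (adjusted p = 0.0701). Of the endothelial markers 6 of 7 were lower, none past the threshold (3 with no scaling, where 27.1% of all genes passed). Their summed level was 5.91 to 5.99 in the WT hearts and 5.82 to 6.01 in the SIRT1 KO hearts, and their part in the *Gja4* value was not tested.

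The other gap junction genes tested gave 1 higher and 4 lower beside *Gja4*. *Gjd3*, on a dim probe, had a log2 fold change of 0.42 (limma adjusted p = 0.0786), and its genotypes did not overlap. It passed with normexp on the median signal (0.38, limma adjusted p = 0.0186) and without WT replicate 2 (0.51, limma adjusted p = 0.0411), and it was 0.20 with no scaling. *Gja5*, the Cx40 connexin of the atria and the conduction system, and *Gja3*, named after their values were seen, gave -0.29 (limma adjusted p = 0.413) and -0.19 (limma adjusted p = 0.187), *Gja3* without overlap. *Gja5* read 2.82 in WT heart 2, 1.91 to 2.18 in the other WT hearts and 1.79 to 2.14 in the SIRT1 KO hearts. *Gja3* passed with no scaling and with normexp on the median signal. Among the 6 tested desmosome genes 5 were lower (4 with quantile normalization, 6 with median scaling) and none passed, with *Des*, the desmin that desmoplakin anchors, at -0.14 (limma adjusted p = 0.392) and *Perp* at -0.12 (limma adjusted p = 0.397), both of which passed with no scaling (-0.36 and -0.34). The desmosome genes of stratified epithelia *Pkp1*, *Pkp3*, *Dsg1a*, *Dsg3* and *Dsc1* were not tested. Of the 17 tested adherens junction genes 9 were higher and 8 lower (3 and 14 with median scaling), with *Cdh4*, R-cadherin, at -0.62 (limma adjusted p = 0.162) on a dim probe. *Cdh4* passed with no scaling (-0.83, limma adjusted p = 0.0347) and without WT replicate 1 (-0.83, limma adjusted p = 0.0361), and it was -0.20 with normexp on the median signal.

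Of the 10 tested tight junction and scaffold genes 5 were higher, 5 lower and none called, with *Marveld2*, tricellulin, at 0.44 on a dim probe (limma adjusted p = 0.136, and 0.0470 with normexp on the median signal) and *Jam3* at 0.22 (limma adjusted p = 0.146). With no scaling *Marveld2* gave 0.22 and *Jam3* 0.0044. Of the 14 disc-associated genes 6 were higher and 8 lower, and the genotypes did not overlap for 4 of them, against the 14.0% of all genes. *Xirp2*, the paralog of *Xirp1*, read 0.66, 0.37, 0.28 and 0.26 in the WT hearts and 0.10, -0.11, 0.02 and -0.76 in the SIRT1 KO hearts, a log2 fold change of -0.58 (SE 0.19, limma adjusted p = 0.119). Its genotypes did not overlap, while those of *Xirp1* did. It passed with no scaling (-0.80, limma adjusted p = 0.0241), with scaling on the cardiomyocyte markers (-0.70, limma adjusted p = 0.0492) and with normexp on the median signal (-0.54, limma adjusted p = 0.0321), and it was -0.39 without SIRT1 KO replicate 4. *Flnc*, filamin C, which binds Xin proteins, had a log2 fold change of 0.36 (SE 0.12, limma adjusted p = 0.121) on its brightest probe, which passed with normexp on the median signal (limma adjusted p = 0.0343) and gave 0.14 with no scaling. Its other probes, named after their values were seen, gave 0.26 (A_51_P205907, limma adjusted p = 0.241) and 0.52 (A_51_P349844, the dimmest, SE 0.11, limma adjusted p = 0.0338).

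**Figure D4:**
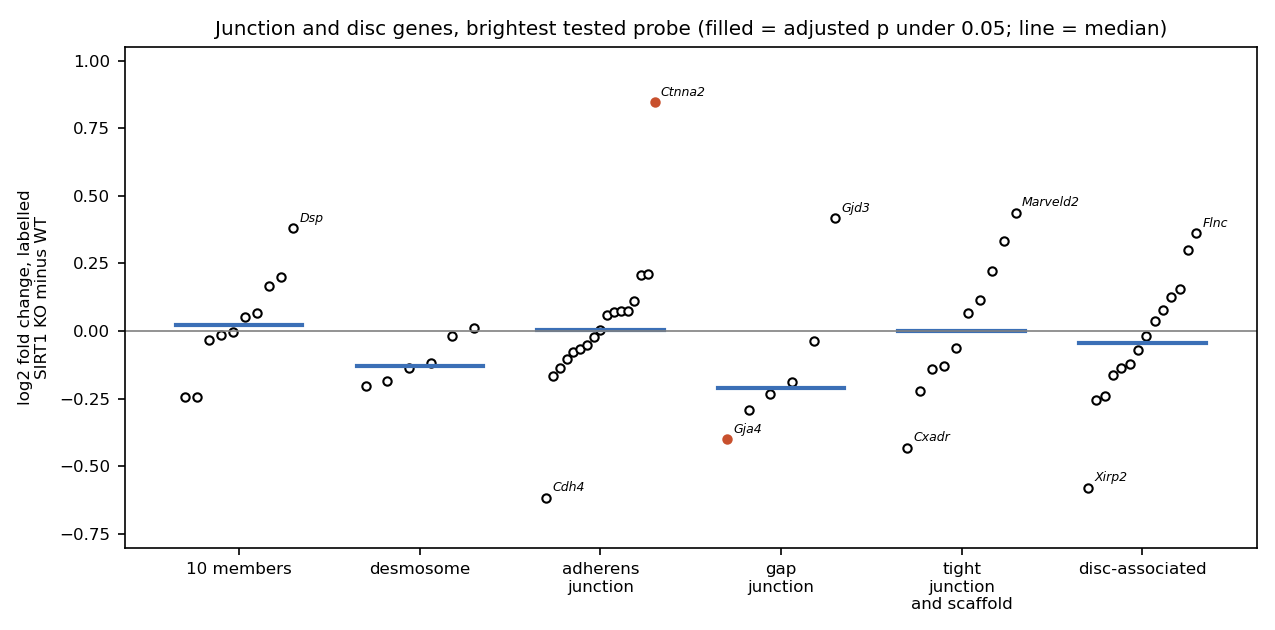
Log2 fold change of the brightest tested probe, SIRT1 KO minus WT as labelled (y axis), for the 10 junction genes and the 53 tested genes of 5 further lists (x axis); filled points had an adjusted p under 0.05 and blue lines are medians. *Ctnna2* and *Gja4* are the filled points.

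**Figure D5:**
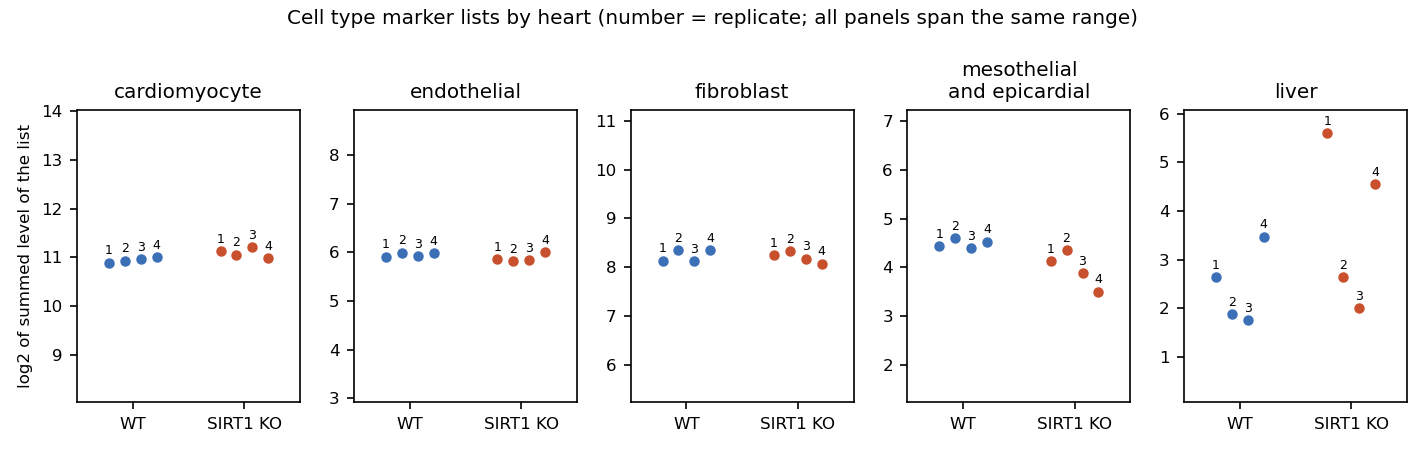
Log2 of the summed level of 5 lists of cell type markers (y axis) in each heart, WT in blue and labelled SIRT1 KO in orange, with the replicate number at each point. The mesothelial and epicardial sum is lower in all 4 SIRT1 KO hearts (3.50 to 4.35) than in the WT hearts (4.39 to 4.61), the cardiomyocyte sums lie within 10.89 to 11.21, and the liver sum differs most between hearts, from 1.76 to 5.60.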

How the data were processed

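RNA from E18.5 hearts, 4 WT and 4 labelled SIRT1 KO, was hybridized to Agilent 4x44 mouse arrays in one color. The authors deposited, per array, the intensity of every spot from Feature Extraction with one-color defaults (background-subtracted, not scaled between arrays; headers name 12.0.0.7) and a table of the same values. Groups were taken from the labels. Here log2 of the processed signal minus the array's 75th percentile was averaged over the spots of a probe, without control and outlier spots. Accessions were matched to RefSeq names of GRCm38.p6, which named 28223 of 41174 probes. Tested were the probes that stood well above background on 4 or more of 8 arrays, with limma 3.58.1 in R 4.3.3 (lmFit, eBayes, Benjamini-Hochberg adjustment at 0.05), after a test on simulated data. Single probes and differences within arrays went through an exact permutation test, two-sided as all tests here. A gene in a list is given by its brightest tested probe. Named are all probes of the 10 genes and, of the other lists, the called genes and the 2 with the smallest p per list. The 10 genes and the lists were chosen with earlier results of these data known. Alternatives covered scaling, background correction, filter, test, replicate block, the deposited table and each array left out. Python 3.11.15, numpy 2.4.6, pandas 2.3.3 and matplotlib 3.10.9 were used. Ingenuity pathways were not used.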

Additional observations from a re-analysis of the deposited data

Results flagged for a closer look

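Among 40 groups of 4 hearts, each a genotype's values of 1 junction gene probe, 2 held a heart far from the other 3 by Dixon's ratio of the gap to the range, taken at its 95% critical value; chance gives about 1 in 20. For the dimmest *Dsg2* probe (A_52_P88091) WT heart 3 was the lowest, with a level of -4.46 against -4.15 to -4.11 and a ratio of 0.896. For the brightest *Dsc2* probe (A_51_P158037) WT heart 1 was the lowest, with -1.70 against -1.61 to -1.59 and a ratio of 0.877. Both hearts stand on the side of the hearts labelled SIRT1 KO.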

How the results depend on the processing

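No junction probe passed the threshold with quantile normalization, either filter, the methods' analysis of variance, the replicate block, normexp on the median signal or the deposited table. Of all probes, 2.02% (analysis of variance) to 9.29% (normexp) passed in these settings. The counts past the threshold were 1 with median scaling (*Dsg2* A_51_P249848), 2 with scaling on the cardiomyocyte markers (the same *Dsg2* probe and *Dsc2* A_51_P158037), 5 with no scaling, and 0 to 1 with 1 heart left out, the 1 being *Dsc2* A_51_P158037 without SIRT1 KO replicate 3. Of the 53 other junction genes 2 were called (3.77%, against 4.60% of all genes), and 1 with quantile normalization (1.89%, against 3.81%), 4 with median scaling (7.55%, against 6.82%), 17 with no scaling (32.1%, against 27.1%), 4 with scaling on the cardiomyocyte markers (7.55%, against 6.78%) and 8 with normexp (15.1%, against 8.36%). The count was 0 with no filter, against 2.47% of all genes, and 0 with analysis of variance, against 1.86%. With 1 heart left out it was 0 to 2, against 2.39% to 5.72% of all genes. Over all probes 1258 were called, and 6352 with no scaling, 2380 with normexp, 517 with analysis of variance and 647 to 1793 with 1 heart left out, the count moving by over 1.5 times without WT replicate 2 (661), WT replicate 3 (647), SIRT1 KO replicate 1 (717) and SIRT1 KO replicate 2 (728). Analysis of variance pools no spread across probes; the cause of the other shifts was not tested.

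Small differences turned sign. With median scaling, no scaling, scaling on the cardiomyocyte markers and normexp, *Cdh2* gave -0.075, -0.17, -0.068 and -0.0095. With the same scalings without normexp, *Xirp1* gave -0.058, -0.15 and -0.051, and *Dsp* A_52_P549815 gave -0.084, -0.18 and -0.077, with -0.047 under quantile normalization. With no scaling alone, *Ctnna3* gave -0.018, *Pkp2* -0.054, *Dsp* A_52_P242544 -0.079 and *Tjp1* A_52_P60338 -0.026. With normexp alone, *Dsg2* A_52_P88091 gave 0.073, the brightest *Dsg2* probe minus it -0.11, and *Dsp* A_51_P201884 0.14. *Ctnna3* relative to *Pkp2* gave -0.026 with quantile normalization, and with the next brightest probe *Dsg2* relative to *Dsc2* gave -0.20 and *Dsp* relative to *Pkp2* -0.025. With 1 heart left out, *Cdh2* ran from -0.016 to 0.14, *Dsg2* A_52_P601757 from -0.084 to 0.056, *Dsp* A_51_P201884 from -0.20 to 0.11, *Dsp* A_52_P549815 from -0.055 to 0.12, *Jup* from -0.072 to 0.050, *Tjp1* A_51_P390739 from -0.058 to 0.038, *Xirp1* from -0.012 to 0.15, *Cdh2* relative to *Jup* from -0.0080 to 0.21, *Cdh2* relative to *Xirp1* from -0.16 to 0.15 and *Ctnna3* relative to *Pkp2* from -0.084 to 0.11.

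The labels number the replicates alike in both genotypes, and the series' design speaks of 4 pairs of hearts, without saying what a pair or a number shares. The deviations of same-numbered hearts correlated with r of 0.20, 0.21, 0.06 and 0.14, so that 1 pair was under 0.1 and the numbers were not taken as pairs, although each heart correlated best with its own number. The exact permutation tests did not use the replicate numbers. With the replicate block 1167 probes in all and 1 of the other junction genes (*Ctnna2*, 1.89%, against 4.47% of all genes) were called, and *Gja4* had a limma adjusted p of 0.0655.

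Normexp on the mean signal was not run; normexp on the median signal was chosen after seeing the data. The number of arrays limits the precision, and dim probes such as *Ctnna3* A_51_P131069 could not be tested. No slide held both genotypes, so they could not be compared within a slide.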
